A study of Homo sapiens with 84 samples.

Results

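The 6 libraries compared here come from the lung cancer line NCI-H1373: 3 from cells exposed to 100 nM of the PARP7 inhibitor RBN012337 for 24 h, and 3 from cells exposed to 3 nM for the same time. They were chosen by their labels, and they are 6 of the 84 libraries of the study, which also holds a second lung cancer line (NCI-H647), a 6 h time, an intermediate dose of 10 nM, vehicle (DMSO) and a second PARP7 inhibitor (RBN-2397 in the design text, written RBN012397 on the samples). NCI-H1373 is an established non-small cell lung cancer line of epithelial origin, and no genetic change was made to the cells. The labels place the doses around inhibitory concentrations, 3 nM at the low end and 100 nM at the high end. Replicates 1 to 3 of each dose come from triplicate experiments whose cultures, plates and days are not described. The p-values below rest on a spread estimated over all 42 libraries of this line, or all 84 for the comparison of lines. That spread can be technical in part, and it is not the spread of the 6 libraries alone. The comparison asks which transcripts differ between the high and the low end of the dose range.

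PARP7, the product of TIPARP, attaches single ADP-ribose units to proteins. TIPARP is itself induced by the aryl hydrocarbon receptor, a ligand-activated transcription factor, and PARP7 acts back on that receptor. In tumour cells PARP7 also holds down the signalling that runs from sensors of cytosolic nucleic acid through the kinase TBK1 to type I interferon, so that its inhibition is known to raise interferon-stimulated genes and the chemokines CCL5 and CXCL10. Proliferating epithelial cells carry, beside this, a programme of DNA replication genes that is driven by E2F factors and falls when cells leave the cycle.

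The 6 libraries hold 1333934 to 5456093 counts, against 630654 to 6938453 in all 84, and counting error is therefore largest for genes of low CPM (counts scaled to the same library total, using TMM-adjusted totals). Epithelial markers were present in all 6, with EPCAM at 301 to 414 CPM and KRT18 at 780 to 2694 CPM. Of 7 markers of blood, fibroblast and endothelial cells, CD3E was at 0 in 6 of 6 libraries and PTPRC, COL3A1 and VWF in 5 of 6, while CD68, COL1A1 and PECAM1 were detected in all 6. COL1A1 was at 0.75 to 3.99 CPM at 3 nM and at 4.28 to 10.6 CPM at 100 nM, without overlap. The 7 markers summed to 9.01 to 14.3 CPM at 3 nM and to 15.4 to 17.7 CPM at 100 nM. Mitochondrially encoded transcripts took 9.91 to 11.2% of counts at 3 nM and 12 to 12.3% at 100 nM, and the part of either shift in the results was not tested.

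The 100 nM libraries did not lie together. Over 3141 genes with a mean above 5.5 on the log2 CPM scale, the 100 nM libraries 1 and 2 correlated with each other at r = 0.901, but with the 100 nM library 3 at only 0.810 and 0.834. Library 3 lay closer to the 3 nM libraries 2 and 3 (r = 0.919 and 0.924), while libraries 1 and 2 lay closest to the DMSO libraries of the same number (r = 0.964 and 0.930). These coefficients are descriptions across genes, which are not independent. On the first principal component of the 21 libraries of this line at 24 h, the 100 nM libraries 1, 2 and 3 fell at -27.5, -19.6 and 14.7, the DMSO libraries at -35.2, -20.9 and -7.48, and the 3 nM libraries at -0.90, 15.1 and 10.6. The 3 nM libraries were also uneven: on the second component library 1 fell at 19.1 and libraries 2 and 3 at -6.46 and -3.01. The 100 nM library 3 fell there at -3.34, beside the RBN-2397 300 nM library 3 (16.6 and -3.35 on the 2 components). Results are given below with and without the 100 nM library 3, and the reason for these positions was not tested.

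**Figure D1:**
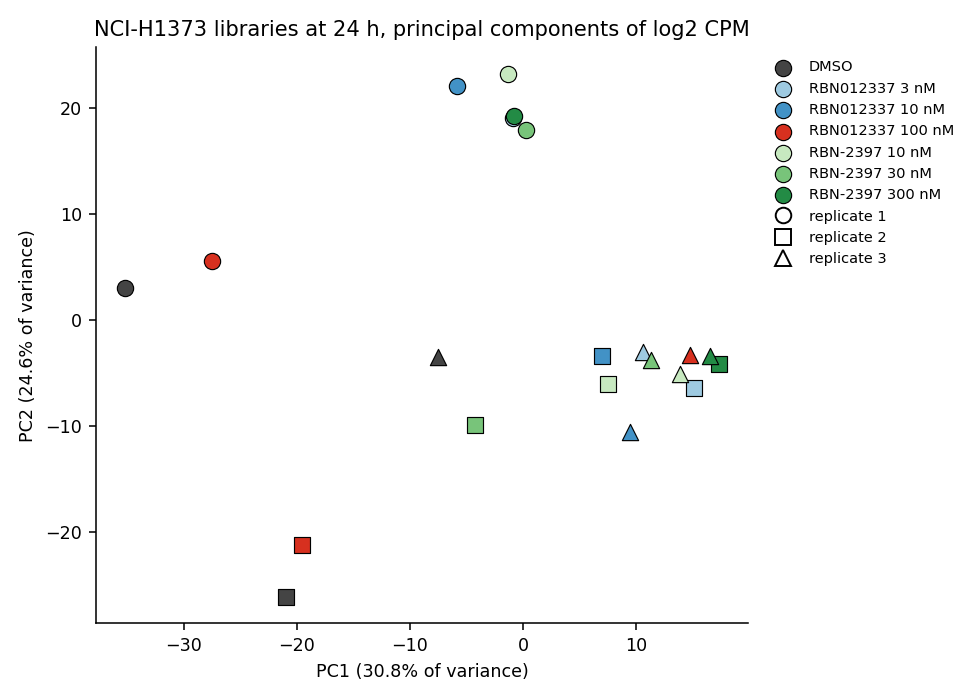
First 2 principal components of log2 CPM for the 21 NCI-H1373 libraries at 24 h; colour gives the treatment and the marker shape the replicate number. The 100 nM libraries 1 and 2 (red circle and square) sit beside the DMSO libraries of the same number. The 100 nM library 3 (red triangle) sits near the 3 nM libraries 2 and 3 and treated libraries of other groups, away from the 3 nM library 1.

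Between 3 and 100 nM, 446 of 12832 tested genes passed the edgeR quasi-likelihood test at a Benjamini-Hochberg adjusted p under 0.05 (3.48%). Higher at 100 nM were 196 genes (1.53%) and lower were 250 (1.95%), and 424 of the 446 are protein coding. The median size of a called change was 1.04 on the log2 scale and the smallest 0.45. All 3 replicate pairs moved in the fitted direction for 369 of the 446, and the 3 libraries of one dose did not overlap those of the other for 280 (110 higher, 170 lower), where 15% of all tested genes were without overlap. The third pair contributed least. It held the smallest of the 3 differences for 86.8% of the called genes (46.5% of all genes), with a median absolute difference of 0.30 against 1.40 and 1.33 in pairs 1 and 2, and for 74 called genes it ran against the fitted direction.

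The number of calls depended strongly on single libraries. With the 100 nM library 3 left out, 1624 genes passed (12.7%; 616 or 4.8% higher and 1008 or 7.86% lower), and 440 of the 446 were among them. None passed without the 100 nM library 1, and without library 2 only 19 did (0.148%). Leaving out the 3 nM library 1, 2 or 3 gave 2, 52 or 513 calls (0.0156, 0.405 and 4%). Of the 67 called genes that the naming rule takes, 65 passed without the 100 nM library 3, 11 without library 2 and 0 without library 1; 1, 15 and 58 passed without the 3 nM libraries 1, 2 and 3, and none changed sign in any of these 6 fits. Without the 3 nM library 1, no member of any gene list described below was called. Without the replicate block only 16 of the 446 were called.

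TIPARP (chromosome 3, 156673235 to 156706770, GRCh38), the gene of the inhibited enzyme, did not pass the test between the doses. Its level was 67.3, 68.3 and 61.8 CPM in the 3 nM libraries 1 to 3 and 92.5, 66.6 and 95.4 CPM at 100 nM, so that the groups overlapped. The fitted difference was 0.36 ± 0.30 (SE, log2; edgeR adjusted p = 0.542). DMSO libraries had 40.6, 24.8 and 43.4 CPM and 10 nM libraries 82.0, 106 and 86.0 CPM, so the level was lowest with vehicle and the ranges at 10 and 100 nM overlapped. None of the 11 tested targets of the aryl hydrocarbon receptor was called (list median 0.26, against 0.00 for all genes), but without the 100 nM library 3 there were 4, 1 higher and 3 lower (36.4%, against 12.7% of all genes in that fit). ALDH3A1, an aldehyde dehydrogenase, then differed by -2.66 ± 0.70 (edgeR adjusted p = 0.0089) and NQO1, a quinone reductase, by 0.67 ± 0.18 (edgeR adjusted p = 0.011). None of the 14 tested members of the PARP family was called either (median 0.05), and 1 was, as lower, without that library (7.14%).

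CCL5, a chemokine that draws T cells, was the called member of the interferon and chemokine list, in which 7 of 16 genes were tested. This share of 14.3%, against 1.53% of all genes called higher, rests on 1 gene. CXCL10 was not among the tested list members. The CCL5 gene lies on chromosome 17 (35871491 to 35880793). Its level was 11.4, 12.01 and 7.17 CPM at 3 nM and 118, 38.2 and 34.9 CPM at 100 nM (10.2 ± 2.64 against 63.6 ± 46.8, SD, n = 3 each). Every library at 100 nM was above every library at 3 nM, and the 10 nM libraries lay between the doses at 25.5, 27.1 and 26.0 CPM, with DMSO at 2.07, 2.53 and 0 CPM. The dose difference was 2.62 ± 0.46 (edgeR adjusted p = 0.0042), and it was 2.84 without the 100 nM library 3. It was 1.86 ± 0.46 and no longer called without the 100 nM library 1 (edgeR adjusted p = 0.211), and the call was also lost without the 3 nM library 1 (adjusted p = 0.077).

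Another 4 genes of the lists and of the largest rises were higher in all 3 pairs. THEMIS2, a signalling adaptor known from blood cells, was at 2.18, 1.50 and 1.10 CPM at 3 nM and 19.0, 9.87 and 11.01 CPM at 100 nM (log2 difference 2.96 ± 0.59; edgeR adjusted p = 0.0088). Unlike CCL5, it was also high with vehicle, at 13.2, 9.11 and 5.21 CPM, so the 3 nM libraries were the low ones. GDF15, a stress-induced cytokine and the called member among 15 tested p53 targets, was at 6.72, 11.3 and 4.41 CPM at 3 nM and 37.1, 36.4 and 21.4 CPM at 100 nM (2.15 ± 0.49; edgeR adjusted p = 0.017). Its vehicle level was 2.07, 3.04 and 0 CPM, below every treated library. BIRC3, an inhibitor of apoptosis and the called member among 10 tested NF-kB targets, was at 13.6, 28.5 and 12.1 CPM at 3 nM and 48.0, 51.2 and 34.9 CPM at 100 nM (1.42 ± 0.31; edgeR adjusted p = 0.010). PMAIP1, which encodes the death-promoting protein NOXA, was tightly grouped at 3 nM, with 56.8, 57.0 and 59.0 CPM, and stood at 171, 85.1 and 103 CPM at 100 nM (1.04 ± 0.30; edgeR adjusted p = 0.049). The p53 and NF-kB shares of 6.67% and 10% each rest on 1 gene, against 3.48% of all genes called in the same fit. In none of these 4 genes did the doses overlap. The 4 were called without the 100 nM library 3, and none was called without library 1. In the fit without library 3, 6 of 15 p53 targets were called (40%), 4 higher and 2 lower. Of 10 NF-kB targets 2 were (20%), 1 higher and 1 lower, against 12.7% of all genes.

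**Figure D2:**
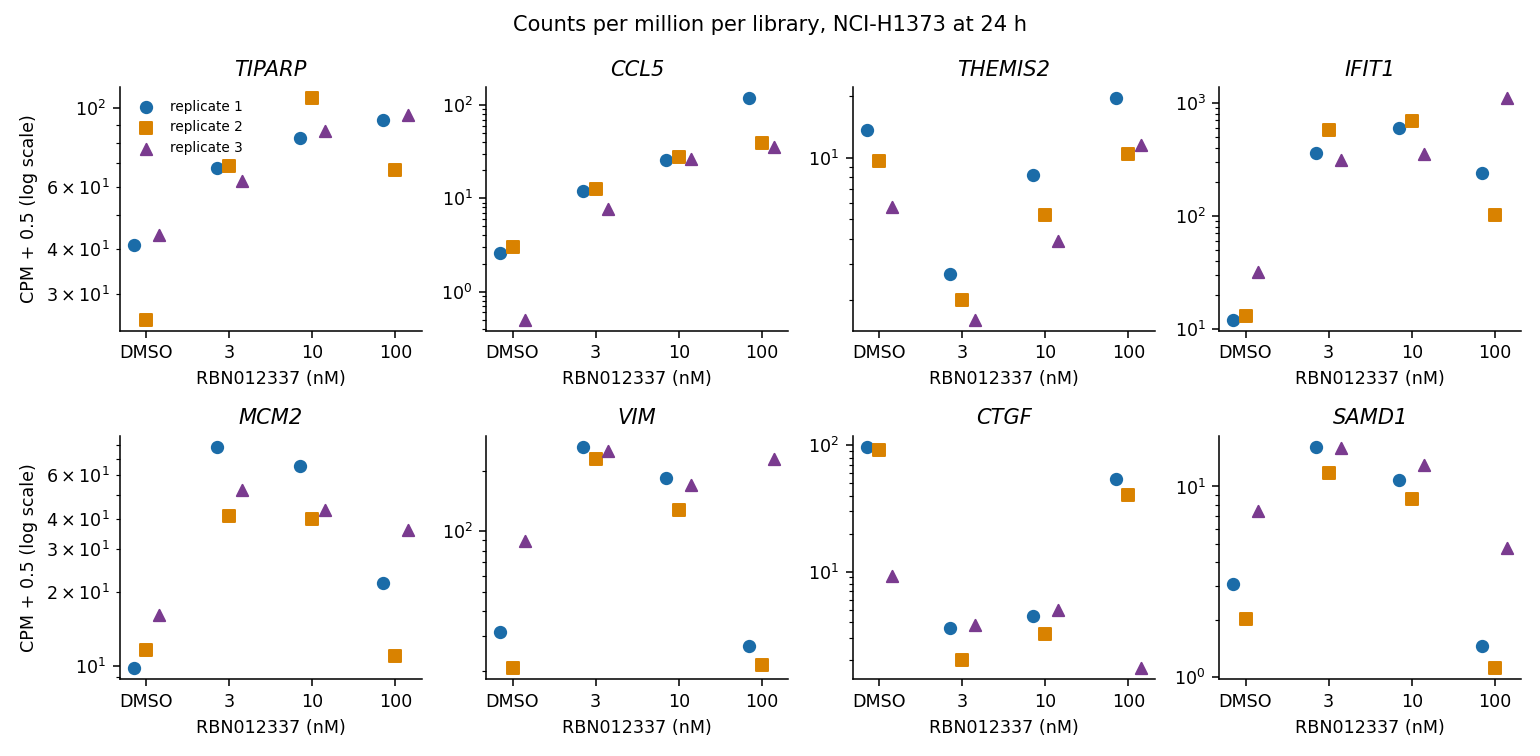
CPM plus 0.5, on a log scale, for 8 genes in each of the 12 NCI-H1373 libraries of vehicle and RBN012337 at 24 h; marker shape and colour give the replicate number. CCL5 is higher in each 100 nM library than in any 3 nM library, MCM2 and SAMD1 are lower, and for IFIT1, VIM and CTGF the 100 nM replicate 3 (triangle) lies away from replicates 1 and 2.

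Interferon-stimulated genes, the group through which PARP7 inhibition is best known, did not separate the doses. None of the 50 tested members was called, with edgeR estimates from -0.67 to 1.32 and a list median of 0.17. The 3 pairs disagreed: the list median was -0.33 in pair 1, -1.30 in pair 2 and 1.45 in pair 3, with 16, 0 and 49 of the 50 members positive. The mean level of the list was 5.75, 6.13 and 5.48 log2 CPM in the 3 nM libraries and 5.49, 4.63 and 7.03 in the 100 nM libraries 1 to 3, so the highest and the lowest of the 6 values were both at 100 nM. The DMSO libraries were at 4.46, 3.99 and 3.80, below all of these, and the 10 nM libraries at 6.25, 6.38 and 5.41. When the 100 nM library 3 was left out, 8 of the 50 passed as lower at 100 nM (16%, against 7.86% of all genes in that fit) and the list median was -0.67; without library 1 or 2 none passed and the medians were 0.46 and 0.56. The direction of the list between the doses was thus set by which libraries entered.

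IFIT1 and ISG15, named after their values were seen as familiar members, show the pattern. IFIT1, which binds foreign RNA ends, was at 357, 578 and 311 CPM at 3 nM and at 241, 102 and 1096 CPM at 100 nM. ISG15, a ubiquitin-like modifier, was at 1368, 1398 and 1076 CPM at 3 nM and at 847, 348 and 3545 CPM at 100 nM. In both genes the 100 nM library 3 was the highest of the 6 and libraries 1 and 2 were the lowest, so the ranges overlapped. With vehicle IFIT1 was at 11.6, 12.7 and 31.2 CPM and ISG15 at 265, 153 and 240 CPM. The sequences upstream of these genes are shown because nearly all list members moved 1 way in pair 2 and the other way in pair 3; they are the 250 bases before the RefSeq start (GRCh38.p14), 5′ to 3′ on the strand of the gene. Capitals mark matches, on either strand, to GAAA, any 2 bases and GAAA, the core of the interferon-stimulated response element.
IFIT1 (chr10:89392373-89392622, plus strand): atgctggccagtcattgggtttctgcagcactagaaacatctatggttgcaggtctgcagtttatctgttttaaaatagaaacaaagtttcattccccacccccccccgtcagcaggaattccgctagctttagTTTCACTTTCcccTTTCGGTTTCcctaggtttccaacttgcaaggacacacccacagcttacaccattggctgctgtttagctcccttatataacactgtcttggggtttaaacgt
ISG15 (chr1:1013247-1013496, plus strand): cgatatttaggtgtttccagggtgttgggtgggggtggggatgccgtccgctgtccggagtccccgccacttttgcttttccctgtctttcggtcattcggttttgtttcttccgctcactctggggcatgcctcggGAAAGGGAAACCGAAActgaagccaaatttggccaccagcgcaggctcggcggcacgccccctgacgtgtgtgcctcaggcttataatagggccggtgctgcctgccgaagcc
IFIT1 holds 2 matches on the opposite strand and ISG15 holds 2 overlapping ones. Of 40 list members with an upstream sequence, 22 hold a match (55.0%), against 1061 of 35116 promoters (3.02%). The list was made of interferon-stimulated genes and none was called, so this share describes the list and not the dose difference. List members and called genes were counted with 1 promoter per gene, and the 35116 include every promoter entry, so these sets are not alike. Among called genes with a sequence, 5 of 147 that were higher (3.40%) and 4 of 192 that were lower (2.08%) hold one. A match is a string of letters and no measure of binding.

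Among DNA replication genes the called ones were lower at 100 nM. Of 36 tested, 10 were called, all lower (27.8%, against 1.95% of all genes called lower), 33 had a negative estimate, and the list median was -0.83. They include MCM2, MCM3, MCM6 and MCM7 of the minichromosome maintenance family, the replication factor MCM10, the origin factors ORC1 and CDT1, and the polymerase POLE. TYMS and TK1, which make thymidine nucleotides, are also among them. Pair medians were -1.01, -1.10 and -0.25, so that the third pair had the same sign at a smaller size. Without the 100 nM library 3, 23 of the 36 were called, all lower (63.9%, against 7.86% of all genes); without library 1 or 2, none was, with medians of -0.61 and -0.67.

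MCM2, a subunit of the replicative helicase, was at 77.9, 40.5 and 51.8 CPM at 3 nM and at 21.3, 10.49 and 35.5 CPM at 100 nM (56.7 ± 19.2 against 22.4 ± 12.5, SD, n = 3 each; log2 difference -1.37 ± 0.25; edgeR adjusted p = 0.0042). Every 100 nM library was below every 3 nM library. MCM6, another helicase subunit, was at 86.6, 64.5 and 75.5 CPM and at 29, 25.9 and 61.8 CPM (-1.001 ± 0.207; edgeR adjusted p = 0.0088). ORC1, which marks replication origins, was at 20.5, 16.5 and 17.7 CPM and at 9.99, 3.08 and 9.17 CPM (-1.27 ± 0.29; edgeR adjusted p = 0.015). For these 3 genes the doses did not overlap. TYMS, thymidylate synthase, was at 49.6, 45.8 and 56.3 CPM and at 15.8, 12.95 and 46.5 CPM (-1.10 ± 0.27; edgeR adjusted p = 0.019), and its 100 nM library 3 lay inside the 3 nM range. With vehicle MCM2 stood at 9.30, 11.1 and 15.6 CPM, below all 3 nM libraries and near the 100 nM libraries 1 and 2. Mitosis genes, in contrast, had no member called among 30 tested and a list median of -0.03, with pair medians of -0.05, 0.18 and -0.29; whether the difference of these 2 lists exceeds chance was not tested.

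The upstream sequence of MCM6 is shown as an example from this list because it holds E2F-type letters, marked in capitals (TTTGGCGC or TTTCGCGC, either strand, where one can overlap the other).
MCM6 (chr2:135876444-135876693, minus strand): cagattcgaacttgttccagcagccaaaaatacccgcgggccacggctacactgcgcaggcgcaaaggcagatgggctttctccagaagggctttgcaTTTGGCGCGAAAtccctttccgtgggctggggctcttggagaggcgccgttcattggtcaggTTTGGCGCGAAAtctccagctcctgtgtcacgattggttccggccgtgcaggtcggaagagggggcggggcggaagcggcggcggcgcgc
It holds 2 such clusters, each of 2 overlapping matches. Of 31 replication genes with a sequence, 5 hold a match (16.1%), against 340 of 35116 promoters (0.968%). Here too the genes were counted with 1 promoter each and the 35116 with every entry, and the share describes the list and not the dose difference. MCM2, ORC1 and TYMS hold no match in this window. Among called genes, 5 of 192 lower (2.60%) and 4 of 147 higher (2.72%) hold one.

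Called genes of protein synthesis were lower by small amounts. Of 39 tested cytosolic ribosomal protein genes, 9 were called, all lower (against 1.95% of all genes), 38 had a negative estimate, and the list median was -0.43 (pairs -0.62, -0.60 and -0.06). RPSA was at 1431, 1117 and 1076 CPM at 3 nM and at 609, 609 and 1053 CPM at 100 nM (-0.70 ± 0.17; edgeR adjusted p = 0.019). For RPL3, RPL7A and RPL5 the differences were -0.65 ± 0.16, -0.58 ± 0.15 and -0.50 ± 0.13. The 39 listed genes together took 10.7, 8.45 and 8.67% of counts at 3 nM and 8.06, 6.45 and 7.97% at 100 nM. The mean level of the list was 10.65, 10.23 and 10.91 log2 CPM with vehicle. It was 11.29, 10.95 and 10.94 at 3 nM and 10.71, 10.36 and 10.84 at 100 nM, so vehicle was below every 3 nM library and overlapped 100 nM. Genes of this family have many near-identical pseudogene copies, so their single values are uncertain. All 19 tested translation factors had negative estimates (median -0.33), and EEF1B2, an elongation factor subunit, was the called one, a share of 5.26% near the 3.48% of all genes, at 1742, 1433 and 1355 CPM against 791, 660 and 1242 CPM (-0.77 ± 0.18; edgeR adjusted p = 0.018). In the fit without the 100 nM library 3, 26 of the 39 (66.7%) and 7 of the 19 (36.8%) were called, all lower, against 7.86% of all genes, and without library 1 or 2 none was.

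Called enzymes of central metabolism were also lower. Of 24 tested genes of glycolysis and hypoxia, 3 were called, all lower, against 1.95% of all genes: ENO1, LDHA and PGAM1 (list median -0.39, pairs -0.71, -0.70 and 0.04). LDHA, lactate dehydrogenase A, was tightly grouped at 3 nM with 1460, 1512 and 1486 CPM and stood at 628, 550 and 1387 CPM at 100 nM (-0.88 ± 0.21; edgeR adjusted p = 0.019). Library 3 at 100 nM was close to the 3 nM level, and yet below it. With vehicle LDHA was at 494, 515 and 1158 CPM, below every 3 nM library and overlapping the range at 100 nM. ENO1 was at 2369, 1753 and 1933 CPM and at 932, 740 and 1828 CPM, with overlap. Of 37 nuclear genes of oxidative phosphorylation, 4 were called lower (CYC1, SDHA, NDUFB10 and ATP5F1A, from -0.83 to -0.47; list median -0.22), while none of the 13 mitochondrially encoded transcripts was called (median 0.08). Among biosynthetic lists few members were called, all of those named here lower: FASN, fatty acid synthase, fell by 1.31 ± 0.37, FDPS and PMVK of the cholesterol route by 0.71 ± 0.19 and 0.94 ± 0.28, and SHMT2, the mitochondrial serine enzyme, by 1.09 ± 0.22. They were 1 of 10, 2 of 23 and 1 of 24 tested members of their lists, shares that rest on 1 or 2 genes beside 1.95% of all genes called lower, and the medians of the cholesterol and the amino acid lists were near 0 (0.08 and 0.01). Against vehicle, FASN, FDPS, PMVK and SHMT2 differed by 1.12, 0.75, 1.20 and 0.58 at 3 nM. At 100 nM they differed from vehicle by -0.19, 0.04, 0.26 and -0.51. The glycolysis list had 12 called members (50%) and oxidative phosphorylation 7 (18.9%), all lower, without the 100 nM library 3, against 7.86% of all genes, and without library 1 or 2 none. In that fit without library 3 fatty acid synthesis had 4 lower, cholesterol synthesis 4 higher and 6 lower, and the amino acid list 5 higher and 4 lower.

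Chaperones of the cytosol had 2 called of 14, both lower (against 1.95% of all genes), and also 2 lower without the 100 nM library 3 (against 7.86%). HSPA8, the constitutive member of the HSP70 family, fell alike in all pairs, by 0.75, 0.63 and 0.77: it was at 770, 651 and 736 CPM at 3 nM and at 457, 420 and 433 CPM at 100 nM (719 ± 61.0 against 436 ± 18.8, SD, n = 3 each; fitted -0.72 ± 0.17; edgeR adjusted p = 0.018). Vehicle libraries were at 332, 362.5 and 484 CPM, below every 3 nM library and overlapping the range at 100 nM. The doses were far apart against their spread. Yet the edgeR call was lost without the 100 nM library 1 (adjusted p = 0.25) or 2 (0.11), or the 3 nM library 1 (0.095). HSPB1, a small heat shock protein, was at 441, 537 and 497 CPM and at 164, 222 and 503 CPM, so that only libraries 1 and 2 were low.

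Genes of cell junctions and of the cytoskeleton moved in both directions. The list of epithelial adhesion and keratin genes had 3 called higher (OCLN, CLDN4 and CDH1) and 3 lower (CDH3, KRT7 and KRT18) of 21 (against 3.48% of all genes), with a median of 0.14. OCLN, a tight junction protein, was at 10.4, 11.3 and 8.82 CPM at 3 nM and at 58.0, 38.2 and 9.17 CPM at 100 nM (1.70 ± 0.34; edgeR adjusted p = 0.0088). CLDN4, a claudin of the same junctions, was at 104, 68.3 and 40.3 CPM and at 349, 226 and 53.8 CPM (1.42 ± 0.31; edgeR adjusted p = 0.014). CDH3, or P-cadherin, went the other way, from 31.4, 32.3 and 28.7 CPM to 9.35, 5.55 and 21.4 CPM (-1.39 ± 0.29; edgeR adjusted p = 0.0092), without overlap. KRT7, a simple-epithelium keratin, was at 1311, 1047 and 1346 CPM and at 396, 401 and 1134 CPM (-1.08 ± 0.26; edgeR adjusted p = 0.022). KRT15, the called one of 6 squamous genes, was higher in all pairs, at 15.1, 11.3 and 9.93 CPM against 38.0, 41.95 and 23.9 CPM (1.43 ± 0.29; edgeR adjusted p = 0.0088). VIM, or vimentin, the called one of 9 mesenchymal genes, was at 262, 229 and 252 CPM at 3 nM and at 26.4, 20.97 and 228 CPM at 100 nM (-1.86 ± 0.51; edgeR adjusted p = 0.044), with log2 differences of -3.28 and -3.41 in pairs 1 and 2 and of -0.14 in pair 3. With vehicle KRT7 was at 203, 307 and 609 CPM and VIM at 31.0, 20.25 and 88.5 CPM, both below every 3 nM library. OCLN was at 42.4, 42.5 and 8.68 CPM with vehicle and KRT15 at 47.3, 54.7 and 15.6 CPM, so 100 nM did not exceed the vehicle range for KRT15. The squamous and mesenchymal shares of 16.7% and 11.1% each rest on 1 gene. Without the 100 nM library 3 VIM differed by -3.27 and the adhesion list had 6 higher and 5 lower (52.4%, against 12.7% of all genes). Without library 1 the adhesion list had none and without library 2 it had 1.

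Called targets of YAP and of growth factor signalling were higher. Of 16 tested TGF-beta and YAP targets, 3 were called, all higher (against 1.53% of all genes), with a list median of 0.03. CTGF, a matricellular growth factor, was at 3.09, 1.50 and 3.31 CPM at 3 nM and at 53.8, 40.1 and 1.22 CPM at 100 nM (3.33 ± 0.78; edgeR adjusted p = 0.023): libraries 1 and 2 were high and library 3 was below every 3 nM library. ANKRD1 was at 1.82, 3.75 and 3.31 CPM and at 20.9, 19.1 and 2.45 CPM (2.31 ± 0.64; edgeR adjusted p = 0.039), and its pair 3 was also negative. AMOTL2, a YAP-binding junction protein, was at 16.7, 15.8 and 16.0 CPM and at 54.1, 66.6 and 28.1 CPM (1.54 ± 0.33; edgeR adjusted p = 0.011), without overlap. Of 21 tested outputs of ERK and immediate early genes, 2 were called, both higher (against 1.53% of all genes; list median 0.41): DUSP5, a phosphatase that acts on ERK, at 8.90, 8.26 and 9.93 CPM against 66.1, 47.5 and 12.2 CPM (2.11 ± 0.45; edgeR adjusted p = 0.012), and JUN, at 16.2, 18.8 and 17.1 CPM against 53.5, 59.8 and 18.3 CPM (1.31 ± 0.35; edgeR adjusted p = 0.032). Vehicle libraries 1 and 2 were high for CTGF (96.6 and 91.7 CPM) and DUSP5 (38.2 and 43.6 CPM), with vehicle library 3 at 8.68 and 10.4 CPM. AMOTL2 was at 45.2, 83.0 and 15.6 CPM with vehicle, JUN at 54.0, 57.2 and 15.6 CPM and ANKRD1 at 12.1, 9.62 and 12.15 CPM. Each of these overlapped the range at 100 nM. These lists had, without the 100 nM library 3, 5 higher and 3 lower, and 7 higher, against 4.8% of all genes higher and 7.86% lower in that fit, and without library 1 or 2 none was called.

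Among 19 tested regulators of apoptosis 3 were called (against 3.48% of all genes), PMAIP1 higher and BID and BAD lower. All 3 encode BH3-only proteins that promote death, so the called members did not share a direction. BID was at 29.8, 15.01 and 20.95 CPM at 3 nM and at 4.83, 4.32 and 13.5 CPM at 100 nM (-1.62 ± 0.33; edgeR adjusted p = 0.0088), without overlap. Vehicle libraries were at 5.42, 2.53 and 3.47 CPM, below every 3 nM library and overlapping the range at 100 nM. BAD was at 76.1, 52.5 and 59.6 CPM and at 26.7, 26.5 and 55.0 CPM (-0.84 ± 0.22; edgeR adjusted p = 0.030), and without the 100 nM library 1 or 2 no member of the list was called. Without library 3, 2 were higher and 2 lower (21.1%, against 12.7% of all genes).

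Genes of lung identity and mucins had no member called among 12, with 11 negative estimates and a list median of -0.77, from pair medians of -1.29, -1.14 and 0.33. The mean level of the list was 2.33, 2.10 and 1.44 log2 CPM with vehicle, below every treated library here. It was 3.97, 3.80 and 3.52 at 3 nM and 2.68, 2.45 and 3.75 at 100 nM. Nearest to the threshold was MUC1, a surface mucin named here for that reason after its values were seen. It was at 27.96, 31.5 and 18.8 CPM at 3 nM and at 2.90, 2.47 and 22.6 CPM at 100 nM (-1.73 ± 0.50; edgeR adjusted p = 0.0501). Without the 100 nM library 3, 6 of the 12 were called, all lower (50%, against 7.86% of all genes), with a median of -1.24, and without library 1 or 2 none was. In bulk RNA a lower level in each cell and a smaller share of cells that express a gene cannot be told apart, here or for any list above.

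**Figure D3:**
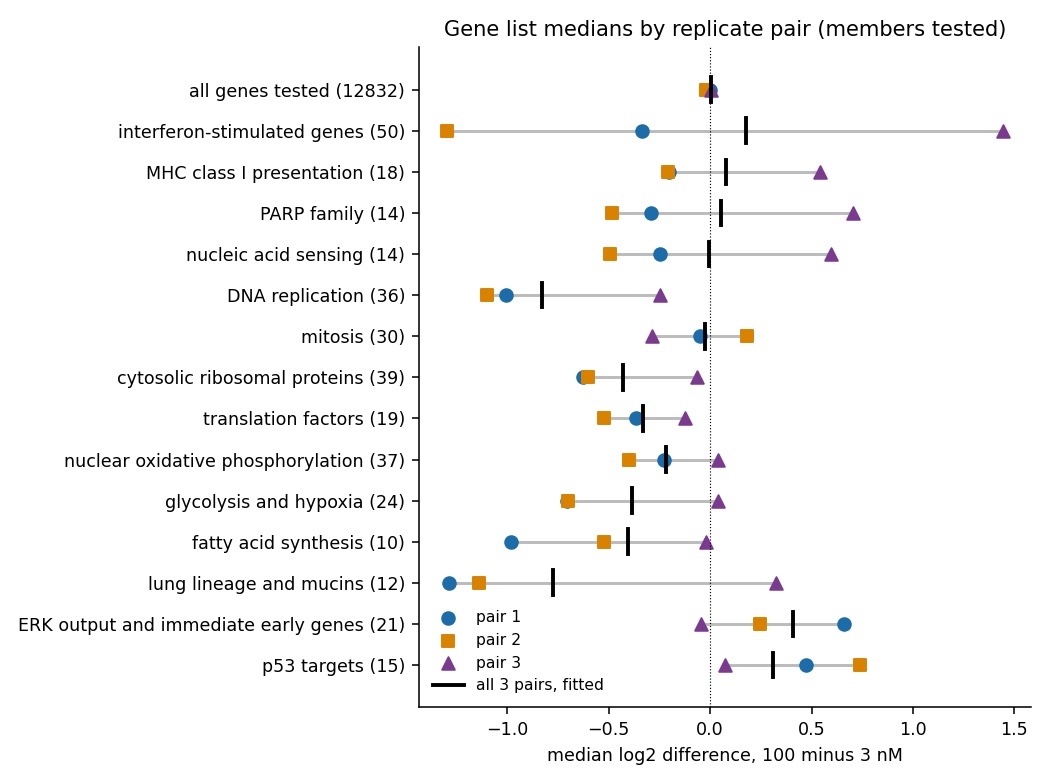
Median log2 difference of 15 gene lists (100 minus 3 nM) in each replicate pair, with the fitted median as a black bar and the number of tested members in brackets. DNA replication and ribosomal protein lists are below 0 in all 3 pairs, whereas the interferon-stimulated genes run from -1.30 in pair 2 to 1.45 in pair 3.

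Another 4 lists had no called member: nucleic acid sensing (14 tested, median -0.01), MHC class I presentation (18 tested, 0.08), immune checkpoint ligands (8 tested, 0.12) and RNAs of splicing and nuclear speckles (18 tested, 0.02). In the fit without the 100 nM library 3 they had 1 lower (7.14%), 2 lower (11.1%), none and 1 higher (5.56%) in this order. Of all genes 7.86% were lower and 4.8% higher in that fit, and the shares of these lists rest on 1 or 2 genes. For the first 2 of these, pair 3 was positive (medians 0.59 and 0.54) where pairs 1 and 2 were negative (-0.25 and -0.49, -0.20 and -0.21), the same order as for the interferon-stimulated genes. Median pair differences over all genes were within 0.02 of 0.

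Beyond the lists, the largest falls that all 3 pairs shared began with transcripts of low abundance. SAMD1 (chromosome 19, 14087840 to 14091036), a chromatin protein that binds unmethylated CpG islands, had the smallest adjusted p of all genes. It was at 15.6, 11.3 and 15.4 CPM at 3 nM and at 0.967, 0.617 and 4.28 CPM at 100 nM (-3.00 ± 0.43; edgeR adjusted p = 2.75e-04), with 10.2, 8.13 and 12.4 CPM at 10 nM and 2.58, 1.52 and 6.94 CPM with vehicle. It stayed called without any one of the 6 libraries other than the 100 nM library 1 (adjusted p = 0.089). LY6D, a membrane-anchored surface protein, was at 98.2, 63.8 and 56.8 CPM and at 10.3, 3.70 and 26.9 CPM (-2.53 ± 0.51; edgeR adjusted p = 0.010). SPDEF, an ETS factor of secretory epithelium, was at 39.8, 18.8 and 23.7 CPM and at 4.19, 2.47 and 14.7 CPM (-2.10 ± 0.49; edgeR adjusted p = 0.019). SLC19A1, the reduced folate carrier, was at 15.8, 9.01 and 10.48 CPM and at 3.22, 0 and 4.89 CPM (-2.14 ± 0.50; edgeR adjusted p = 0.018). In each of these 4 genes the doses did not overlap.

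DHRS4, a retinal reductase with near-identical neighbouring copies and therefore uncertain, was at 9.26, 21.01 and 20.95 CPM and at 0.967, 0 and 0.612 CPM (-4.50 ± 1.08; edgeR adjusted p = 0.023). PTP4A3, a phosphatase of the PRL family, had 42 counts in the 3 nM libraries and 0 at 100 nM, which is at least 10.3-fold lower by a floor of 3 counts over the group. ZNF488, a zinc finger repressor, had 41 counts against 2, 15.1-fold lower (95% counting interval 3.91 to 129), and TGFB1I1, a focal adhesion protein, had 30 against 2, 11.02-fold lower (2.80 to 95.2). These intervals cover counting error only. The other 4 of the 12 largest falls were NEMP2, SYNE4, C1orf159 and GMEB2, from -2.46 to -2.13, of which SYNE4 overlapped between the doses.

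Most of the largest rises were of low-abundance transcripts too. CLU, the secreted chaperone clusterin, was at 14.2, 12.8 and 8.82 CPM at 3 nM and at 170, 216 and 19.0 CPM at 100 nM (3.20 ± 0.72; edgeR adjusted p = 0.019), with 198, 271 and 41.7 CPM with vehicle. TLE4, a Groucho-type corepressor, had 2 counts at 3 nM and 67 at 100 nM, a ratio of 45.6 (95% counting interval 12.1 to 384), but its 100 nM library 3 was at 0.612 CPM where libraries 1 and 2 were at 13.5 and 14.8. TNFRSF11A, the receptor RANK, was at 0.726, 0 and 0.551 CPM and at 6.12, 4.32 and 3.67 CPM (3.08 ± 0.78; edgeR adjusted p = 0.023). CCPG1, a receptor for autophagy of the endoplasmic reticulum, was at 3.63, 0 and 1.10 CPM and at 18.7, 15.4 and 6.73 CPM (2.63 ± 0.67; edgeR adjusted p = 0.027). TRIM36, a ubiquitin ligase, and SPNS1, a lysosomal transporter, differed by 3.17 ± 0.80 and 2.59 ± 0.66, the second without a call when the 100 nM library 3 was left out (adjusted p = 0.064). With vehicle TRIM36 was at 7.23, 6.58 and 5.21 CPM, above every library of both doses. TNFRSF11A was at 3.87, 6.08 and 3.47 CPM, SPNS1 at 4.39, 2.53 and 5.21 CPM and CCPG1 at 29.45, 19.2 and 0 CPM, each overlapping the range at 100 nM.

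Some of these rises cannot be assigned to a gene with certainty. RPL22P2, a pseudogene that resembles RPL22, had 0 counts at 3 nM and 29 at 100 nM, at least 13.2-fold higher by the same floor. ELF3-AS1 is antisense to ELF3, and without stated strand handling the 2 cannot be told apart (2.92 ± 0.69). QRICH2 had 2 counts against 26, a ratio of 17.7 (4.43 to 154), and AC138904.1, a long non-coding RNA, differed by 3.29 ± 0.82. Apart from TLE4, the doses did not overlap for any of the 12 largest rises.

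**Figure D4:**
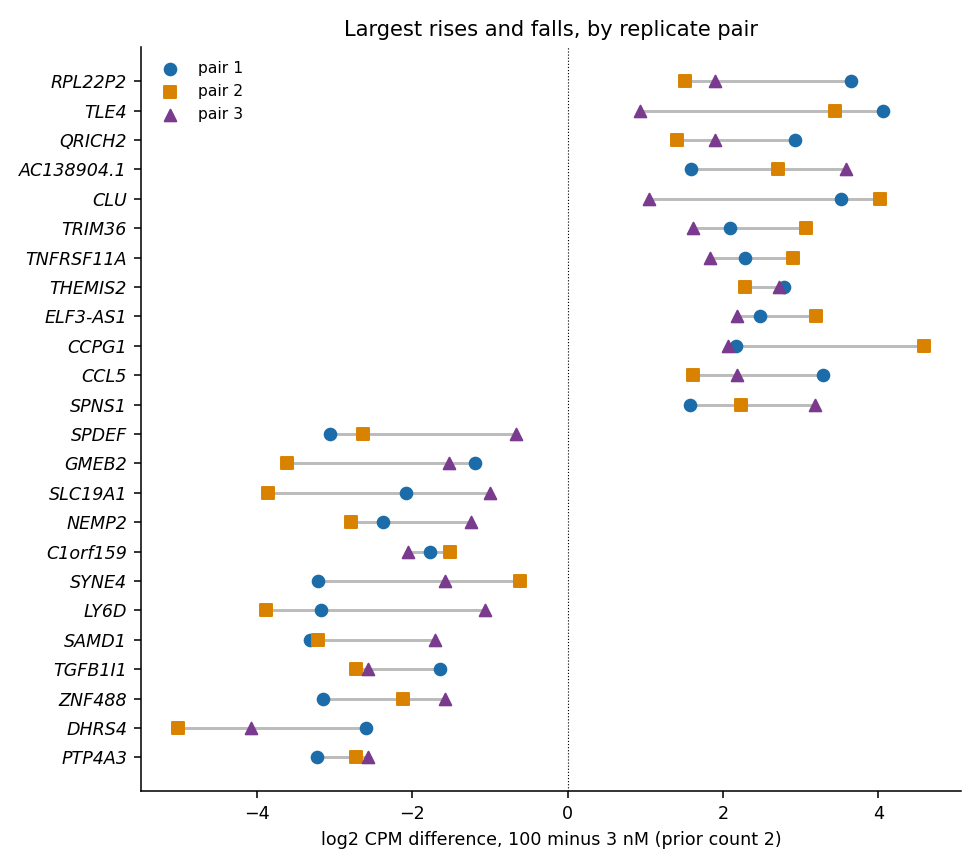
Difference in log2 CPM (prior count 2) between 100 and 3 nM in each replicate pair, for the 12 largest rises and the 12 largest falls that all pairs share. THEMIS2, C1orf159 and PTP4A3 have pairs close together, whereas for CLU, TLE4, LY6D and SPDEF pair 3 (triangle) is nearest to 0.

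The same pair of doses was used at 6 h, in NCI-H647, and, with 10 and 300 nM, for RBN-2397; none of those libraries enters a level or a pair difference given above, but the NCI-H1373 ones share the fit and its estimate of spread. The doses of the second compound are not matched. In NCI-H647 at 24 h, 394 of the 446 genes had the same sign (88.3%, against 65.3% of all genes). At 6 h in NCI-H1373, 292 did (65.5%, against 59.1%), and for RBN-2397 at 24 h 184 did (41.3%, against 46.5%). The DNA replication list had a median of -0.48 in NCI-H647, -0.03 at 6 h and -0.07 with RBN-2397, beside -0.83 here. The mitosis list had medians of -0.40, 0.05 and -0.09 in the same order, beside -0.03 here, so in NCI-H647 the 2 lists lay close together. Ribosomal proteins had medians of -0.15, 0.15 and 0.06 in the same order, and interferon-stimulated genes 0.20, -0.10 and 0.60.

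Tests of the differences themselves called few genes with edgeR. Between 24 and 6 h the dose difference differed for 4 of 12832 genes (0.0312%; 1449 at an unadjusted p under 0.05), which were SAMD1, ITGA2, DNMBP and AC018521.1. Between the compounds it differed for 3 (0.0234%; 1724 unadjusted), which were SAMD1, PTP4A3 and AL928654.3. Between the lines it differed for 0 of 16177 (0%; 879 unadjusted; 13 with DESeq2). MCM2 shows how the values lie side by side: -1.37 ± 0.25 here, -0.02 ± 0.23 at 6 h, -0.03 ± 0.24 with RBN-2397 and -0.60 ± 0.27 in NCI-H647, with an edgeR adjusted p of 0.118 for the time difference, 0.117 for the compound difference and 0.918 for the line difference. CCL5 differed by 2.62 ± 0.46 here, 1.05 ± 0.47 at 6 h, 0.54 ± 0.47 with RBN-2397 and 0.35 ± 0.34 in NCI-H647, and none of these differences passed (edgeR adjusted p = 0.348, 0.171 and 0.188). Without the 100 nM library 3 the 3 counts were 438, 820 and 65.

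**Figure D5:**
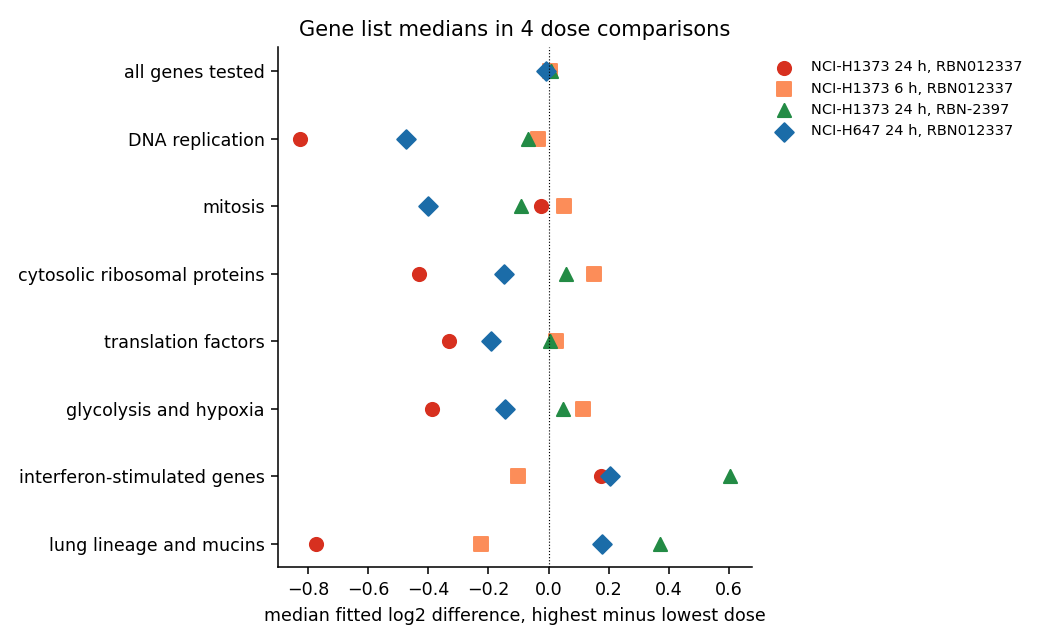
Median fitted log2 difference between the highest and the lowest dose for 8 gene lists in 4 dose comparisons that share no library. DNA replication lies at -0.83 for NCI-H1373 with RBN012337 at 24 h and at -0.48 for NCI-H647, and close to 0 at 6 h and with RBN-2397.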

How the data were processed

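Libraries for 3' digital gene expression, which count transcript ends, were prepared from total RNA per the labels' protocols. The authors deposited a single table with estimated counts for each gene and library, without normalization or pooling, made with Salmon on hg38 per the submitters' processing notes; 49.4% of nonzero values are not whole. No label or header names the annotation or how molecular identifiers and strand were handled (not given in the sources used here), so near-identical, overlapping and antisense genes are uncertain, and intervals and floors cover counting error only. Columns were matched by title, the estimated counts were rounded, and names and positions come from GENCODE 29 (57845 of 57964 genes).

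The 42 NCI-H1373 libraries were fitted in 1 model of 14 groups with the replicate number within time as a block (edgeR 4.0.16 on R 4.3.3, filterByExpr, TMM, robust quasi-likelihood F test, Benjamini-Hochberg within each contrast, 0.05), and the contrast of lines with all 84. SE is the fold change over the root of F. Pair differences are of log2 CPM with a prior count of 2. The numbers pair the samples by the rule used here: deviations from the group means correlated at 0.563, 0.178 and 0.114 in pairs 1, 2 and 3, each above 0.1, although only replicate 1 had its own number as best partner. All replicates differed by more than sampling noise (chi-square divided by its degrees of freedom, 3.90 to 17.5 at 3 nM and 24.4 to 29.8 at 100 nM).

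Named genes are the 12 largest rises and falls among called genes with a mean of at least 5 counts in the higher group and 1 direction in all pairs, up to 4 called members of each of 29 lists by adjusted p, called genes of the differences, and TIPARP; further list members are named to complete a count. Not every gene or list that the rule takes is reported here. The libraries, lists and tests were chosen with earlier results of these data known. Alternatives were no block, fewer libraries, DESeq2 1.42.0, RLE size factors, other filters, limma 3.58.1 voom with quality weights, and each library left out. Promoter sequences are from RefSeq (GRCh38.p14).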

Additional observations from a re-analysis of the deposited data

Results flagged for a closer look

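In 7 cases the difference between 100 and 3 nM in NCI-H1373 at 24 h differed from the same difference at another time or with the other compound by edgeR's test of that difference itself. The values are differences of log2 differences.

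Against 6 h, SAMD1 differed by -3.08 ± 0.53 (edgeR adjusted p = 0.0064), from -3.00 at 24 h and 0.09 at 6 h. ITGA2, a collagen-binding integrin subunit, differed by 1.83 ± 0.31 (edgeR adjusted p = 0.0064). It was at 142, 207 and 171 CPM at 3 nM and at 476, 489 and 229 CPM at 100 nM after 24 h, and its difference was 1.22 at 24 h and -0.60 at 6 h. DNMBP, an exchange factor for CDC42, differed by 1.97 ± 0.37 (edgeR adjusted p = 0.015), from 0.99 at 24 h and -0.98 at 6 h. AC018521.1 differed by -13.55, from -7.68 at 24 h and 5.87 ± 1.37 at 6 h. Its 101 counts at 3 nM and 24 h all came from library 1 (18.3 CPM), with 0 in the other 5 libraries compared.

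Against RBN-2397, whose doses are 10 and 300 nM, SAMD1 differed by -3.13 ± 0.56 (edgeR adjusted p = 0.011), from 0.13 with that compound. PTP4A3 differed by -7.97 ± 1.52 (edgeR adjusted p = 0.029), with 0 counts in all 3 libraries at 100 nM. AL928654.3 differed by 20.56, from 11.55 here and -9.00 ± 1.44 with RBN-2397. In the 6 libraries compared, all of its 1041 counts came from the 100 nM library 3 (636 CPM), so the 11.55 describes 1 library. The main contrast no longer called AL928654.3 without that library. Fitted values of genes at 0 counts depend on the prior count and are no measure of size.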

How the results depend on the processing

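Of the 68 genes that the naming rule takes, none changed sign under an alternative that tested it (50 to 68 genes a setting), while the number of calls moved widely. For 100 against 3 nM, the 446 calls became 16 without the replicate block, 98 with the 21 libraries of 24 h, 0 with the 6 libraries alone (1447 at an unadjusted p under 0.05), 785 with DESeq2, 747 without a filter, 2411 with voom quality weights, 0 to 1624 with 1 library left out, and 0, 4 and 1497 with pair 1, 2 or 3 left out; RLE size factors and a mean of at least 10 counts gave 436 and 519. Of the 446, 417 were shared by DESeq2 and 444 by voom. For 24 h minus 6 h, the 4 calls became 0 without the block, 64 with DESeq2, 198 without a filter, 1344 with voom, and 0 to 438 with libraries left out. Between compounds, the 3 calls became 0 without the block, 123, 316 and 1171 with the same 3 settings, 7 with RLE, and 1 to 820 with libraries left out. Between lines, the 0 calls stayed 0 without the block and became 13, 90 and 495, and 0 to 65 with libraries left out. The cause of these moves was not tested, except that the 6-library fit and those without a library hold fewer samples. Counting error is largest in the libraries of the lowest totals (1333934, 1455252 and 1622459 counts), so genes below a few CPM are the least certain.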
